A study of Mus musculus with 2 samples.

Results

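The interferon regulatory factor (IRF) genes were examined in macrophages grown from mouse bone marrow, on whole-transcript expression arrays. The members were taken by gene symbol. They came to 8 of the 19505 named genes: Irf1, Irf2, Irf3, Irf4, Irf5, Irf7, Irf8 and Irf9, each with 1 probe set. There were 2 groups with 1 array each. The first group, written LysM(+) below, had the genotype LysM (+);MC4RTB/TB. The second group, written TB/TB, had the genotype MC4RTB/TB. Both groups therefore carried the TB allele of MC4R, the melanocortin 4 receptor, on both copies, and differed by LysM alone in their labels. A TB allele is generally one in which a removable cassette blocks transcription, and Cre recombinase is often placed under LysM (the gene Lyz2) to act in myeloid cells, but the labels state neither. Per the labels' protocols, marrow cells received 25 ng/mL of M-CSF, the growth factor of macrophages, on days 0 and 3 and were used from day 5. Serum was at 10% for both groups. The number, age and sex of the animals, and whether marrow was pooled, are not stated in the labels.

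IRFs are transcription factors that share a DNA-binding domain and recognise repeats of GAAA, the core of the interferon-stimulated response element (ISRE). IRF3 and IRF7 are activated when a cell senses viral nucleic acid and switch on type I interferon genes. IRF9 joins STAT proteins in the complex ISGF3, which carries the interferon signal to antiviral genes. IRF1 and IRF2 bind the same sites with opposite effects at many of them, IRF5 drives inflammatory cytokine genes, and IRF8 and IRF4 act with PU.1 in macrophages, dendritic cells and lymphocytes.

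Values are log2 RMA expression values, and differences are LysM(+) minus TB/TB. With 1 array per group there was no replicate error and no test, so every difference describes these 2 arrays. Genes were counted from a 1.5-fold gap upward (a log2 difference of 0.585), provided that the brighter value reached the floor, the median of the named probe sets' means, 6.12. The 23 background control probe sets lay between 3.09 and 6.81. As a check of the labels, Mc4r was at background on both arrays (4.45 and 4.57), so it tests nothing, and Lyz2 was near the top of the range on both (18.86 and 19.04). All 13 measured macrophage markers reached the floor, and values ran from 7.28 to 17.93 in LysM(+) and from 7.22 to 17.97 in TB/TB; Cd68 was not analysed here.

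The promoters of 4 members are shown because they hold matches to elements known from interferon signalling, or, for Irf7, because that gene differed most among the members above the floor. Each is the 250 bases before the gene's start in RefSeq (GRCm38.p6), read 5′ to 3′ along the gene. All 8 members matched the RefSeq promoter table, with 11 windows in all, since Irf1, Irf8 and Irf9 have 2 starts each there; the first window is printed. Capitals mark matches to the ISRE core, taken as GAAA, any 2 bases and GAAA, or to the STAT element GAS, TTCNNNGAA.
Irf1: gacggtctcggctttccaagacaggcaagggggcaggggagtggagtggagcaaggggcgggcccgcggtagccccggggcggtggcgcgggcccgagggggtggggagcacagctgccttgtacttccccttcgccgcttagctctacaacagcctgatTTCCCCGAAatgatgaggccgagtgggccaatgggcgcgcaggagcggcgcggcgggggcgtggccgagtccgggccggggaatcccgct
Irf2: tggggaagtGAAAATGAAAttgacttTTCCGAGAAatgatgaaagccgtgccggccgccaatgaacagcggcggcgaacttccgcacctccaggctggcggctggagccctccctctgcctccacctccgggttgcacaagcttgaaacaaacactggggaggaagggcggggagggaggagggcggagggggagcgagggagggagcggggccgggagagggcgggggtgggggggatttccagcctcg
Irf8: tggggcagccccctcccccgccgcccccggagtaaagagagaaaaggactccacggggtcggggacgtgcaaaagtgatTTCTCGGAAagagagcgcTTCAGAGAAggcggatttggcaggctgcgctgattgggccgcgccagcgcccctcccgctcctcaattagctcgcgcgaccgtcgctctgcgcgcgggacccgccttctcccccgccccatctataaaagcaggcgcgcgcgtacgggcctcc
Irf7: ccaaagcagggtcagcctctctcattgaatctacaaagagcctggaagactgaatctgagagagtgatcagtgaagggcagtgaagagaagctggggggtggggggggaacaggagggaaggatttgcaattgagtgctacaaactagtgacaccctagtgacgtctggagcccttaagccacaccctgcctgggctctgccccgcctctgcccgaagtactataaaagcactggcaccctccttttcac
The windows are chr11:53769764-53770013, plus strand for Irf1, chr8:46739495-46739744, plus strand for Irf2, chr8:120736108-120736357, plus strand for Irf8 and chr7:141266425-141266674, minus strand for Irf7. Both strands were searched over the full 300 bases of each window, which go on 50 bases past the start; a GAS match reads the same on both strands and was counted once, and overlapping ISRE matches were counted separately. Irf1 held 1 GAS match, from 90 to 82 bases before its start. Irf2 held 1 ISRE match, from 241 to 232 bases before its start, and 1 GAS match from 224 to 216. Irf8 held 2 GAS matches, from 171 to 163 and from 153 to 145 bases before its start. The other 5 members held 0 matches to either pattern in these windows. Of the 32851 windows in the table, 3.44% held the ISRE core and 8.30% held GAS. A match is a run of letters, not shown here to be a bound site.

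None of the 8 IRF genes was counted as differing (0 higher and 0 lower). The background shares, over the 10137 genes that reached the floor, were 10.9% counted higher and 5.16% counted lower. Of the 7 members that reached the floor, 3 had a higher value in LysM(+) and 4 a lower one, with a median difference of -0.19; over all genes at the floor it was 0.07. Their median absolute difference was 0.25, beside 0.26 for all genes at the floor, so the sizes were alike. In the range of the members' 2-array means, 8.41 to 12.11, 4368 genes reached the floor, of which 11.5% were counted higher and 3.37% lower.

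**Figure D1:**
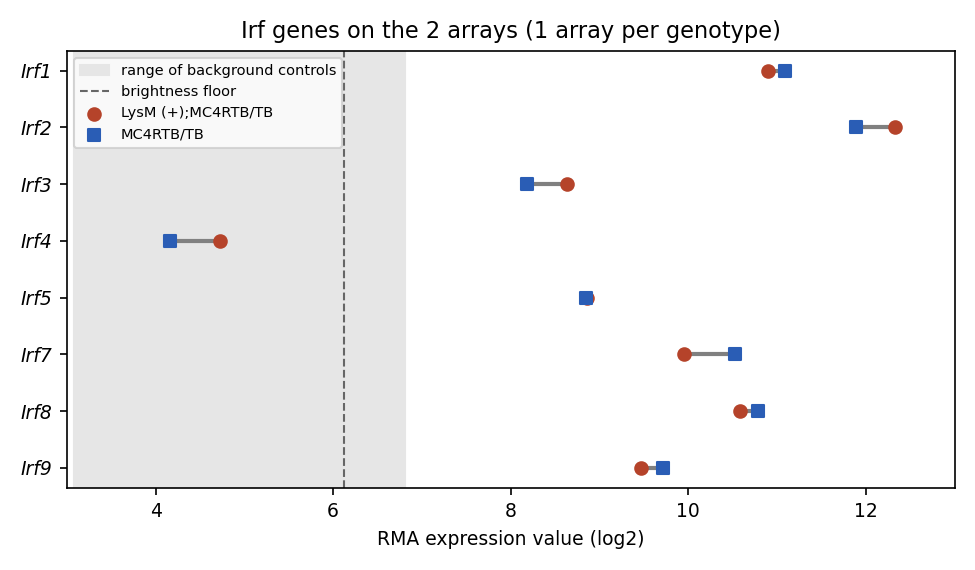
Log2 RMA value (horizontal axis) of each Irf gene on the LysM (+);MC4RTB/TB array (circles) and the MC4RTB/TB array (squares), with the brightness floor (dashed) and the range of the background controls (grey). Irf7 has the widest gap among the genes above the floor, and Irf4 lies within the background range on both arrays; levels of different genes are read by different probes and cannot be ranked.

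Of the pair that responds to viral nucleic acid, neither gene was counted. Irf7, the amplifier of type I interferon production and itself an interferon-induced gene, had a value of 9.95 in LysM(+) and 10.53 in TB/TB. The difference was -0.58, short of the threshold by 0.0021 on the log2 scale. After quantile normalization or loess normalization it passed the threshold, at -0.68 in both, where 5.53% and 5.81% of genes at the floor were counted lower. Of the 4368 genes in the members' range of values, 149 (3.41%) had a difference as low as that of Irf7. Irf3, which is made constitutively and activated by phosphorylation, had 8.63 in LysM(+) and 8.18 in TB/TB, 1.36-fold higher (0.45). Differences as high as that of Irf3 were common, at 18.2% of the genes in that range. Relative to each other, Irf3 and Irf7 signals shifted by 1.03 on the log2 scale between the arrays.

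Irf9, the DNA-binding subunit of ISGF3, had 9.47 in LysM(+) and 9.71 in TB/TB, 1.19-fold lower (-0.25). Its partner Stat2 had 10.29 and 10.85, 1.47-fold lower (-0.56), also short of the threshold; it passed after quantile or loess normalization. Both subunits given here thus had the lower value in LysM(+), neither by 1.5-fold in the deposited values.

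Irf1 and Irf2, the activator and its frequent antagonist at shared sites, were not counted either. Irf1 had 10.90 in LysM(+) and 11.09 in TB/TB, 1.14-fold lower (-0.19). Irf2 had 12.33 and 11.89, 1.36-fold higher (0.44). Differences as low as that of Irf1 were found for 20.3% of the genes in the members' range, and as high as that of Irf2 for 18.6%. The Irf2 signal shifted against that of Irf1 by 0.63 on the log2 scale. Irf2 is the sole member whose window held both an ISRE core and a GAS match.

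Irf8, a lineage factor of monocytes and macrophages that binds with PU.1, had 10.58 in LysM(+) and 10.79 in TB/TB, 1.16-fold lower (-0.21). Differences as low as that were found for 18.8% of the genes in the members' range. Spi1, the gene of PU.1, had 18.38 and 18.33, a difference of 0.05. Irf5 had 8.85 on both arrays, and its difference of 0.0039 was the smallest in the family; its sign turned after quantile (-0.07) and loess normalization (-0.08), the sole member for which it did so.

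Irf4, a factor of lymphocytes, dendritic cells and alternatively activated macrophages, had 4.73 in LysM(+) and 4.16 in TB/TB. Both values were under the floor and within the range of the background controls, so its difference of 0.57 rests on background-level signal. A gap of 1.5-fold in either direction was found for 8.61% of the 9368 genes under the floor.

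At 1.3-fold, a threshold added after the values were seen, 2 members were higher (Irf2 and Irf3) and 1 lower (Irf7), where 21.2% and 12.2% of genes at the floor were. The genes whose pair of values lay nearest to that of Irf7, by Euclidean distance over the 2 arrays, were Pdlim2 (9.97 and 10.51), Ccz1 (10.00 and 10.52) and Klf3 (10.00 and 10.51), at distances of 0.03 to 0.06. With 2 arrays this likeness means an equal level and difference only.

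**Figure D2:**
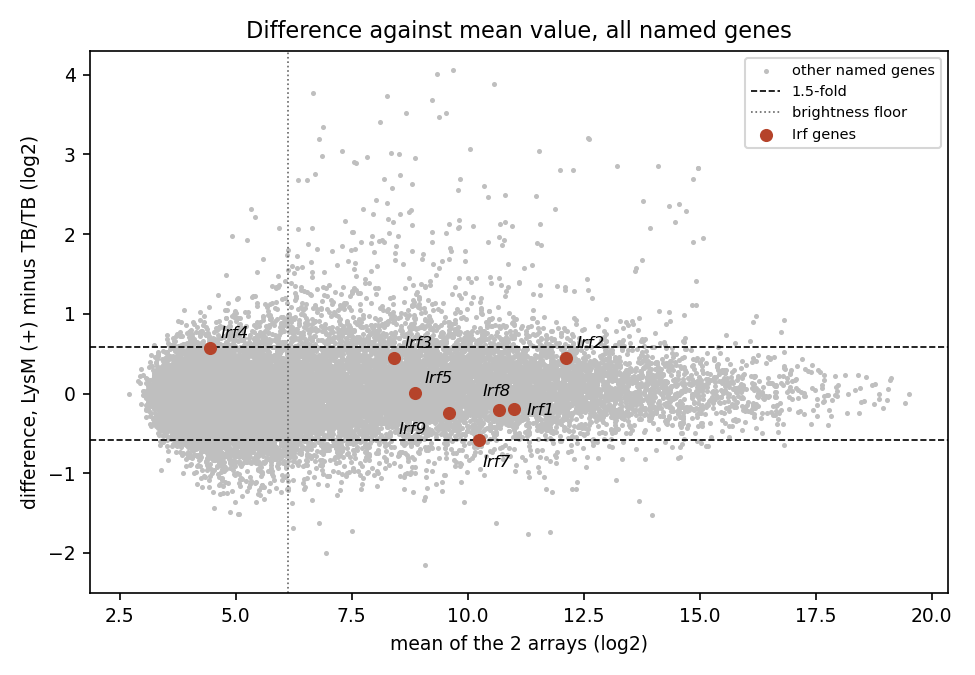
Difference between the arrays (vertical axis, log2, LysM(+) minus TB/TB) against the mean of the 2 arrays (horizontal axis, log2) for 19505 named genes (grey) and the Irf genes (red), with dashed lines at 1.5-fold and a dotted line at the floor. All 8 Irf genes lie inside the dashed lines, with Irf7 at the lower one.

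Genes that activate IRFs were read beside the shares of all genes at the floor, 10.9% counted higher and 5.16% lower. Of 18 measured sensors, adaptors and kinases, all at the floor, 1 was counted higher, 1 lower, and the median difference was -0.10; by any amount, 4 had the higher value in LysM(+) and 14 the lower. Cgas, the DNA sensor that signals through STING, had 8.07 in LysM(+) and 6.85 in TB/TB, 2.33-fold higher. Tlr9, the endosomal sensor of unmethylated DNA, had 12.05 and 12.67, 1.53-fold lower. The kinases that phosphorylate IRF3 and IRF7 were Tbk1 at 12.03 and 12.50 (-0.47) and Ikbke at 11.68 and 11.87 (-0.19). The 1 gene counted on each side gave no common direction past 1.5-fold.

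Interferon genes themselves were dim. Of 17 measured ligand genes, 4 reached the floor and 1 was counted lower, Ifna5, which had 7.42 in LysM(+) and 8.003 in TB/TB (-0.59). Ifna5 lay just past the threshold, and 0 ligands were counted lower after median centring. Ifnb1, the interferon that macrophages make first, had 5.36 and 6.03, under the floor. The other ligands ran from 3.17 to 6.15 in LysM(+) and from 2.98 to 6.46 in TB/TB, none above the highest background control. The interferon alpha genes are so alike that their probes may read several of them. The 9 measured receptor, Janus kinase and STAT genes all reached the floor, 0 were counted, and their median difference was -0.07. Counts of ligands and receptors are read beside 10.9% of all genes at the floor counted higher and 5.16% lower.

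Among 13 measured cofactors and binding partners, 11 reached the floor, and 1 was counted higher and 0 lower. Of all genes at the floor, 10.9% were counted higher and 5.16% lower. The median difference of the 13 was -0.01. The counted gene, Batf2, an AP-1 factor known to pair with IRF1, had 6.29 in LysM(+) and 5.17 in TB/TB, within the background range on both. Batf3, which works with IRF8 in dendritic cells, had 4.82 and 5.17, under the floor. Irf2bp2, a corepressor of IRF2, and its relative Irf2bpl had differences of -0.16 and 0.56.

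Among the target lists, the antiviral genes had the lowest median difference. Of 29 measured antiviral genes that ISGF3 and IRFs switch on, 27 reached the floor, 13 were counted lower and 0 higher, where 5.16% and 10.9% of all genes at the floor were. Their median difference was -0.45, beside -0.09 for the 8 Irf genes and -0.19 for the 7 Irf genes at the floor. Of those 27 genes, 22 had the lower value in LysM(+). Among the 13 counted lower, Ifit2 had 5.93 in LysM(+) and 6.52 in TB/TB, within the background range on both. Ifit3 and Ifit3b are both among the 13, and shared probe signal between them was not tested. Usp18, which damps interferon receptor signalling, had 8.38 in LysM(+) and 9.72 in TB/TB, 2.53-fold lower. Rsad2 (viperin, 2.46-fold), Ifit3 (an antiviral IFIT protein, 2.29-fold) and Xaf1 (2.16-fold) followed. That this list was lower on the LysM(+) array was known when it was drawn up.

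The lists of targets tied to single IRFs had fewer counted genes, read beside the same 5.16% lower and 10.9% higher. Of 20 measured genes of the IRF1 and interferon-gamma list, 16 reached the floor, 3 were counted lower and 0 higher, and the median difference was -0.18. These were Ciita, the switch of MHC class II genes, at 1.91-fold, Gbp2, a GTPase of cell defence, at 1.73-fold, and Cd274, the checkpoint ligand PD-L1, at 1.54-fold. Of 14 measured IRF8 and PU.1 targets, 13 reached the floor and 0 were counted, with a median difference of -0.12. Of 8 measured IRF5 targets, 6 reached the floor and 2 were counted higher, the cytokine gene Tnf (11.47 and 10.19, 2.43-fold) and the chemokine gene Ccl4 (8.82 and 8.22, 1.52-fold). After quantile or loess normalization 1 of them, Tnf, was counted. The other 6 IRF5 targets had differences from -0.53 to 0.08, so the list had no common direction. Of 12 measured IRF4 targets, 9 reached the floor and 3 were counted lower. These were Pdcd1lg2 (7.33 in TB/TB, 2.19-fold), Mgl2 (6.47, 1.83-fold) and Clec10a (8.59, 1.54-fold), and Mgl2 lay within the background range.

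**Figure D3:**
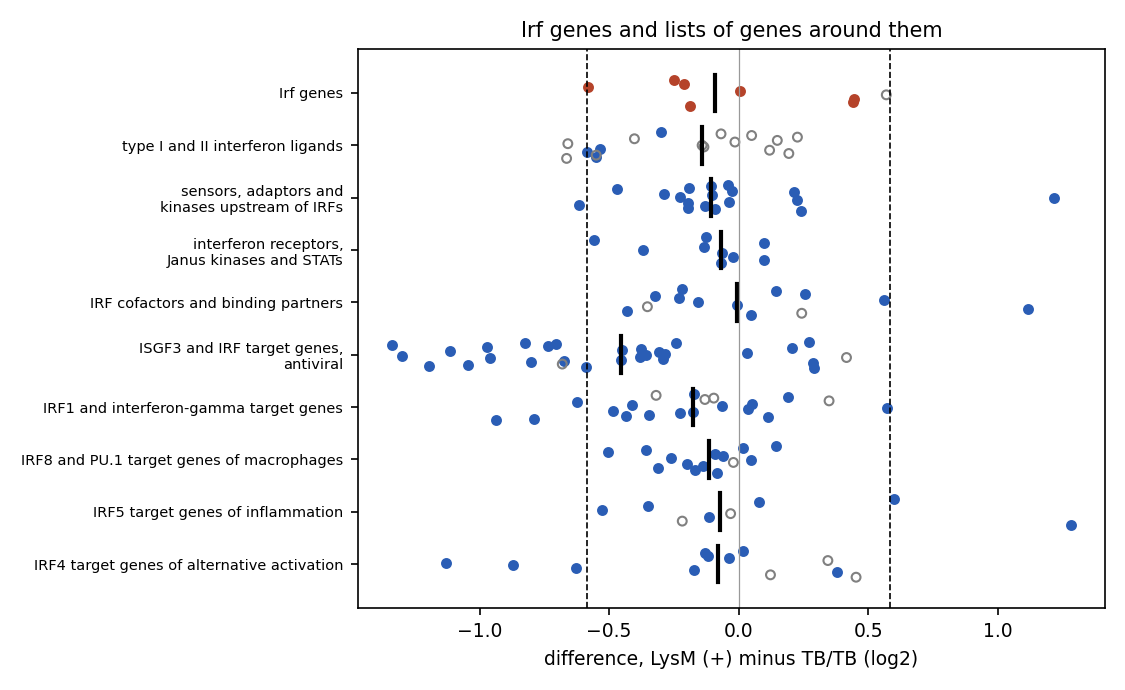
Difference (horizontal axis, log2, LysM(+) minus TB/TB) of each Irf gene (red, top row) and of each measured gene in 9 lists of genes around them (blue; open circles are under the floor), with the list medians as black bars and dashed lines at 1.5-fold. The antiviral target row has its median at -0.45 and 13 genes at the floor beyond the lower line, where 5.16% of all genes at the floor lie. That this list was lower was known when it was drawn up. No Irf gene passes either line.

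The sequence that IRFs read was then looked for in the promoter windows of the genes measured. The 30-base stretches below, from RefSeq (GRCm38.p6), are shown because they carry the ISRE core (capitals) in target genes that were counted lower, Rsad2, Ifit3, Oas3, Gbp2 and Trim30a, and in a pair that was not, Ifit1 and B2m. The first match of each gene is shown; Ifit3 and Ifit1 have 2 in their windows, and Trim30a has 1 in each of its 2 windows. Each is printed 5′ to 3′ on the strand that reads GAAA.
Rsad2: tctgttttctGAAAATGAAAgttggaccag
Ifit3: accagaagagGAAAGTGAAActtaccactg
Oas3: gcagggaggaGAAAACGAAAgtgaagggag
Gbp2: ttaagacagtGAAAGTGAAActaaaagagt
Trim30a: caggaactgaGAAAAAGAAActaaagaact
Ifit1: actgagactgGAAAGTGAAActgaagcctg
B2m: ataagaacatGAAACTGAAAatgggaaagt
They lie at chr12:26456553-26456582, plus strand (Rsad2), chr19:34583363-34583392, minus strand (Ifit3), chr5:120777715-120777744, minus strand (Oas3), chr3:142620594-142620623, minus strand (Gbp2), chr7:104465210-104465239, plus strand (Trim30a), chr19:34640775-34640804, minus strand (Ifit1) and chr2:122147538-122147567, plus strand (B2m). Oas3, which makes the messenger that activates RNase L, was 1.94-fold lower and Trim30a 1.63-fold lower in LysM(+). Ifit1, from the same gene cluster as Ifit3, had 8.62 in LysM(+) and 8.33 in TB/TB, a difference of 0.29. B2m, the light chain of MHC class I, had 19.08 and 19.03. Over the antiviral and the IRF1 target lists together, 19 measured genes had a core in a window. Of these, 15 had the lower value in LysM(+), 6 of them counted, and 4 had the higher value, 0 of them counted. Among genes of both lists whose windows held no core, 3 antiviral targets and 1 IRF1 target were also counted lower. Over all genes at the floor, 5.16% were counted lower and 10.9% higher. The antiviral list was known to be lower when it was drawn up, so these counts cannot show what the core adds. The 15 include Isg15 and Socs1, which lay under the floor and within the background range on both arrays.

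The ISRE core was common in the target lists. It was held by 11 of the 21 antiviral targets that had a window (52.4%) and by 8 of 16 IRF1 and interferon-gamma targets, beside 3.94% of the 15691 measured genes with a window. It was held by 4 of 11 IRF8 and PU.1 targets, 0 of 9 IRF4 targets and 0 of 5 IRF5 targets. Of the 13 antiviral targets counted lower, 5 had the core, 3 had a window without it and 5 had no window in the table.

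Among the 8322 genes at the floor that had a window, those with the core were counted lower more often; the 1815 others at the floor had no window in the table. Of 331 genes with it, 39 (11.8%) were counted lower and 27 (8.16%) higher; of 7991 genes without it, 383 (4.79%) were counted lower and 880 (11.0%) higher. The median difference was -0.03 with the core and 0.07 without it. Leaving out the antiviral and the IRF1 target lists, 33 of 314 genes with the core (10.5%) were counted lower and 27 (8.60%) higher. Those 33 still include Ifna5, Ifit1bl1 and Slfn5, so the remainder was not cleared of interferon-linked genes. For GAS the shares were close, with 5.16% of 717 genes with it and 5.06% of 7605 without it counted lower. These are shares of genes on 2 arrays, and genes are not replicates. At 2-fold, where calls were few, 7 genes with the core (2.12%) were lower, beside 0.763% of genes without it. At that threshold 12 genes with the core (3.6%) were higher, beside 3.3% without it.

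**Figure D4:**
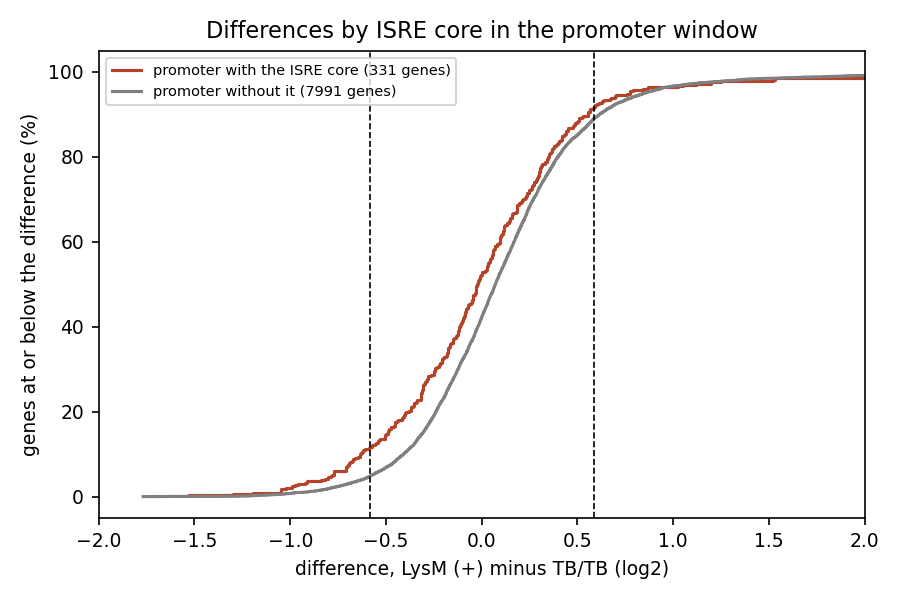
Share of genes at the floor (vertical axis, %) with a difference at or below the value on the horizontal axis (log2, LysM(+) minus TB/TB, shown from -2 to 2), for 331 genes whose promoter window held the ISRE core (red) and 7991 whose window did not (grey), with dashed lines at 1.5-fold. At the left dashed line the red curve stands at 11.8% and the grey one at 4.79%.

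Markers of dividing and of other cells differed between the same arrays. All 16 measured cell division markers were counted higher in LysM(+). Their median difference was 2.72, with values from 6.21 to 16.59 in LysM(+) and from 4.28 to 15.69 in TB/TB. Over all genes at the floor, 10.9% were counted higher and 5.16% lower. Of 12 measured neutrophil markers 6 were counted higher and 0 lower (values from 5.87 to 16.32 and from 5.30 to 15.92). Their median difference was 0.61, and the counted Cxcr2 and Mmp9 lay within the background range. Of 9 monocyte markers 1 was counted higher, Cx3cr1 (3.74-fold), and 1 lower, Itgal (1.93-fold). The monocyte values ran from 3.97 to 12.60 and from 4.03 to 12.24, with a median difference of 0.36. Of the 8 at the floor, 6 had the higher value in LysM(+) and 2 the lower. The part of dividing and other cells in the differences of the Irf genes and their targets was not tested. A changed share of cells cannot be told apart from a changed level per cell.

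Lymphoid and dendritic cells can express IRF4, IRF7 and IRF8 strongly, so their markers were read beside these members. Of 8 plasmacytoid dendritic cell markers 5 reached the floor and 0 were counted (3.59 to 14.48 in LysM(+) and 3.64 to 14.63 in TB/TB). The defining marker Siglech had 6.33 and 6.51 and was 1 of 6 within the background range. Tcf4 (14.48 and 14.63) and Bst2 (10.67 and 10.98) lay above that range. Of 9 conventional dendritic cell markers 2 reached the floor and 0 were counted. Those 2, Itgax (7.55 and 7.67) and Ccr7 (8.76 and 8.82), lay above the background range. Xcr1 and Clec9a were at background (3.82 and 4.03 in LysM(+)). Of 8 B cell and plasma cell markers 3 reached the floor and 1, Sdc1, was counted lower; Ms4a1 and Pax5 were at background. Of 10 T cell and NK cell markers 1 reached the floor, and of 7 progenitor markers 2 did; 0 of either were counted.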

How the data were processed

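Expression was measured on 2 arrays, 1 per genotype. The authors' deposited values, log2 per probe set, were made by RMA in Affymetrix Expression Console. This is per the submitters' processing notes, which name no version or genome build here. RMA corrects background, matches arrays and summarises probes, so differences may be compressed. The log base was taken as 2 from the method; values reached 19.5, high for RMA, so folds depend on that reading. The platform annotation gave 1 gene symbol to 19572 of 28846 probe sets; symbols were updated by Entrez ID through RefSeq, and a gene's probe sets were averaged.

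Members and lists were chosen with earlier results of these data known. The text names all members, set partners (Spi1, Batf3, Stat2, Tbk1, Ikbke, Ciita and Usp18), the counted members of each list up to 4 a direction, and the 3 genes nearest to the member that differed most; others (Ifnb1, Irf2bp2, Irf2bpl, the genes whose sequences are shown, and those in the closing section) were chosen after their values were seen. The markers Cxcr2, Mmp9, Cx3cr1, Itgal, Tcf4, Bst2, Itgax and Ccr7 were also named after their values were seen. So were the antiviral genes Ifit2 and Ifit3b. The counting rule and motif search were tested on simulated data. Python 3.11.15, pandas 2.3.3 and statsmodels 0.14.6 were used. The 2 arrays limit the precision; no test was possible. Alternatives were median centring, quantile and loess (span 0.4) normalization, the brightest probe set, other floors and other thresholds.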

Additional observations from a re-analysis of the deposited data

How the results depend on the processing

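No paired analysis was possible because each group has 1 array. The count of Irf genes, 0 higher and 0 lower, became 1 lower after quantile normalization and 1 lower after loess normalization, by Irf7 alone. At the added 1.3-fold threshold it became 2 higher and 1 lower. It was 0 and 0 under median centring, the brightest probe set, no floor, a floor at the highest background control and a 2-fold threshold. The median difference of the 8 members ran from -0.18 to -0.09. No member but Irf5 changed sign under median centring, quantile, loess or the brightest probe set. The antiviral targets counted lower numbered 5 at 2-fold, and from 12 to 16 under the other settings. Of the 331 genes at the floor with the ISRE core, 12 (3.6%) were counted higher and 7 (2.12%) lower at 2-fold. Without the core, the 2-fold shares were 3.3% higher and 0.763% lower. At 1.3-fold, 58 genes with the core (17.5%) were counted higher and 67 (20.2%) lower, beside 21.3% higher and 11.3% lower without it. Under median centring, quantile, loess and the brightest probe set, from 11.2% to 13.3% of genes with the core and from 4.61% to 5.40% of those without it were counted lower. For the counts by ISRE core, all these settings were chosen after the data were seen. Of 204 other values, 178 moved by under 0.1 on the log2 scale or by at most 1.5 times in count. The remaining 26 moved by more. Most of the 26 were counts at the 2-fold or 1.3-fold threshold, which change with the threshold itself. For the others the cause was not tested. With no scanner values used here, signal over background is known from the control probe sets alone, and Irf4 cannot be read above it.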

Other observations

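Genes outside the lists also combined the ISRE core with a difference between the arrays; they were chosen after their values were seen. Among those counted lower in LysM(+) were Aoah, an enzyme that inactivates lipopolysaccharide (13.21 in LysM(+) and 14.74 in TB/TB), Ifit1bl1, a gene related to Ifit1 (8.10 and 9.15), Tmem140 (11.11 and 12.16) and H2-T23, a nonclassical MHC class I gene (12.09 and 13.01). Among those counted higher were genes of cell division: the histone gene H3c10 (14.20 and 10.99), Cdca3 (9.54 and 6.84), the spindle checkpoint gene Bub1b (9.67 and 7.42) and E2f8 (11.15 and 9.05). Slfn8, of the interferon-linked Schlafen family, went with these at 11.06 and 8.51, whereas Slfn5 had 11.88 and 12.70. H2 and histone genes have similar copies whose probes can share signal.

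The place of the core in the window was also set beside the differences, with a limit chosen after the data were seen. Of 190 genes with a core ending within 125 bases before the start or lying after it, 27 (14.2%) were counted lower and 11 (5.79%) higher. Of 141 genes with cores only farther out, 12 (8.51%) were counted lower and 16 (11.3%) higher. Of 26 genes with 2 or more matches, 4 (15.4%) were counted lower and 0 higher. Ifit3 and Ifit3b were among those 4, and shared probe signal between them was not tested. Of 305 genes with 1 match, 35 (11.5%) were counted lower and 27 (8.85%) higher. Genes without the core stood at 4.79% lower and 11.0% higher. With so few genes, the class of 2 or more matches cannot be told apart from that of 1 match. The antiviral and the IRF1 target lists were left in for these splits, and the antiviral list was known to be lower. These shares are over genes on 2 arrays, with no test.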
